A study of Mus musculus with 12 samples.

Results

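Type I interferon-stimulated genes were measured in resident macrophages (RM) of the colon and in its CD11b+ dendritic cells (CD11b+ DC), in mice that lack *Runx3* in CD11c-expressing cells and in their wild-type (WT) litter mates. The 38 genes were taken by name, as genes that type I interferons are known to induce, and 36 of them had a row of their own on the array, out of 19938 genes with one. *Isg15* stands only on a row shared with other symbols and *Ifi44* on none, so neither was analysed here. Type I interferons, interferon-β and the interferon-α family, are released by cells that sense viral or bacterial nucleic acids, and they act through the receptor Ifnar1-Ifnar2 on the same cell and its neighbours. The receptor's kinases activate Stat2, which with Irf9 is part of a complex that binds the interferon-stimulated response element of the genes examined here, most of which encode antiviral proteins. In the gut, mononuclear phagocytes are known to keep up a low level of this response that depends on the microbiota.

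The 12 samples held 4 cKO and 3 WT samples of RM, and 3 cKO and 2 WT samples of CD11b+ DC. The cKO mice were Runx3 fl/fl mice carrying a *CD11c-Cre* transgene on the C57Bl/6 background, which the labels call Runx3 -/-, and the controls are labelled Runx3 +/+. Whether the controls carried floxed alleles or the transgene is not given in the sources used here. All mice were 6 to 8 weeks old, and each sample pooled cells of 3 to 4 mice of both sexes. Both cell types were sorted from the cecum as Ly6c- leukocytes with CD11c, CD11b and MHC II on their surface, and were told apart by the macrophage antigen that *Adgre1* encodes, which RM carry and CD11b+ DC lack. CD11c thus served both to drive Cre and to gate the cells, and other cells that express CD11c also lose *Runx3* in these mice. The labels give each sample a litter mate number, read here as its litter. In RM this is also the replicate number, with litters 1 to 4 among the cKO and 1 to 3 among the WT samples. In CD11b+ DC it is not: cKO replicates 1, 2 and 3 came from litters 1, 3 and 4, and WT replicates 1 and 2 from litters 2 and 3.

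The deposited values are log2 levels, and the number of arrays limits their precision. A gene is said here to meet the study's thresholds when it differed by 1.5-fold or more at an unadjusted p of 0.05 or less. All 9 measured RM markers were higher in WT RM than in WT CD11b+ DC, with a median difference of 2.10 on the log2 scale. All 10 markers of CD11b+ DC were lower, with a median difference of -1.49. Some of these markers also met the study's thresholds between the genotypes (log2 cKO minus WT). In RM, *Cx3cr1* (-0.59), *Kmo* (-0.78) and *Dpp4* (-0.62) were lower and *Ccr7* (0.63) was higher. In CD11b+ DC, *Irf4* (-0.66) was lower. The targeted gene, *Runx3* (row 10509030), was measured at 9.94 ± 0.16 (SD, n = 4) in cKO RM and 9.69 ± 0.19 (SD, n = 3) in WT RM, and at 10.04 ± 0.09 (SD, n = 3) in cKO CD11b+ DC and 10.05 ± 0.09 (SD, n = 2) in WT CD11b+ DC. *Runx3* was thus not lower in cKO samples on this row. The floxed segment is exon 3, and which exons the row covers was not examined here, so the row is no check of the deletion.

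The response element was searched for in the promoters, since it is the DNA sequence through which type I interferons are known to act on such genes. Promoters of RefSeq (build GRCm38.p6), each from 250 bases before to 50 bases after a start site, were at hand for 28 of the 38 genes. The core searched was GAAANNGAAA, 10 letters read on both strands, where N is any base. It was found in 14 of these 28 genes, against 1079 of all 27025 genes with a promoter (3.99%). The RUNX motif TGTGGT, also read on both strands, was found in 4 of the 28 (14.3%), against 18.9% of all genes. Of the measured genes not at the study's thresholds in RM, 19 had a promoter. Among those 19, 8 held the response element and 4 the RUNX motif. Of the 10 genes that were lower in cKO RM at the study's thresholds, 7 had a promoter, of which 5 held the response element and 0 the RUNX motif. These matches are descriptions of letters in a window and not measured binding sites. RUNX motifs outside the window were not searched for here. The study names *Ifih1* as a high-confidence Runx3 target in both cell types. It drew on RUNX motifs in marked or Runx3-bound regions that were not limited to this window. The promoters of 4 of these 5 genes, those with the lowest log2 fold changes in RM, are shown because they hold the element and differed between the genotypes, written 5′ to 3′ on the strand of the gene, with the matches to the core in capitals (TTTCNNTTTC is the same core on the other strand).
Ifit1, chr19:34640639-34640938, + strand: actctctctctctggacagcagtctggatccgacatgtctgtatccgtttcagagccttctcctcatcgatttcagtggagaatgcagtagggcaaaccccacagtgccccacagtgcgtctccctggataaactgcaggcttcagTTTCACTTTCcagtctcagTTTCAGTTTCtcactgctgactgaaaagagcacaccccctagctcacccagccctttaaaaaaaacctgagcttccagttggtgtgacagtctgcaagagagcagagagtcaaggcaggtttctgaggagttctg
Ifit3, chr19:34583279-34583578, + strand: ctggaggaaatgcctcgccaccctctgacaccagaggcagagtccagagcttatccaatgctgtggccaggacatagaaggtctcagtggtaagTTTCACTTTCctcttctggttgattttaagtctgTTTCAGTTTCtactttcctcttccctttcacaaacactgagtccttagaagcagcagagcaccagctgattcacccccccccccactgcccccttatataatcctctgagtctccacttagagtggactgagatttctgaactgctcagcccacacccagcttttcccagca
Rsad2, chr12:26456403-26456702, - strand: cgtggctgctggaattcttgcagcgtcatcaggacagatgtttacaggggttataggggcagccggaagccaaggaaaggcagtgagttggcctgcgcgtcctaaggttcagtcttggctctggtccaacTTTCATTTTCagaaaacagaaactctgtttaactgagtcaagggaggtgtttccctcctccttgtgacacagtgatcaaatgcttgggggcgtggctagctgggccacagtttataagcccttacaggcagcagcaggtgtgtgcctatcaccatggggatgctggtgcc
Ifih1, chr2:62646206-62646505, - strand: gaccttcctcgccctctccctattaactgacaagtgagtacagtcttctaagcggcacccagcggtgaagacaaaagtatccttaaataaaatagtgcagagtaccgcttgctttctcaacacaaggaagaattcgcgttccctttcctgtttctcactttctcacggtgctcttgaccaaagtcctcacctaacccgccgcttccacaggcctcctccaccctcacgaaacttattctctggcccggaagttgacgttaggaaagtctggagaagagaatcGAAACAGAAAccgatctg
*Ifit1* and *Ifit3* hold 2 matches each. The first bases of the *Ifit1* matches lie at -104 and -85 from the start and those of *Ifit3* at -156 and -122, while *Rsad2* holds 1 match at -120 and *Ifih1* 1 match downstream of the start, at position 33.

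In RM, the interferon-stimulated genes lay lower in cKO than in WT samples as a group. Of the 36 genes, 34 had a log2 fold change (cKO minus WT) below 0, and their median was -0.32, against a median of 0.01 over all 19938 genes. In bulk samples, fewer cells of a type and less RNA per cell cannot be told apart. At the study's thresholds 10 genes were lower and 0 were higher. Over all genes these shares were 0.858% lower and 0.487% higher. The 10 were *Ifit1*, *Mx2*, *Ifit3*, *Ifit2*, *Rsad2*, *Mx1*, *Oasl1*, *Usp18*, *Ifih1* and *Ddx60*, with log2 fold changes of -1.37 to -0.61. None of the 36 passed at an adjusted p under 0.05 (limma, Benjamini-Hochberg over all 35556 rows, lowest adjusted p = 0.181). Of all genes, 0.0201% passed that limit. At an unadjusted p under 0.05, 16 of the 36 were lower and 0 higher, against 1120 lower and 681 higher of all 19938 genes. For 8 genes every cKO sample lay below every WT sample, which 4.51% of all genes showed in that direction. WT replicate 3 decides much of the count: without it 3 genes were lower at the study's thresholds, *Ifit1*, *Ifit3* and *Ifi27l2a*, and the median of the 36 was -0.24. Without cKO replicate 1, *Ifit2*, *Mx2* and *Ddx60* no longer met them, and *Ifit2* was also lost without cKO replicate 2 or 3 and *Rsad2* without WT replicate 1. By the methods' test as rebuilt here, which does not moderate the variance, 8 genes were lower, without *Ifit2* and *Mx2*. *Mx2* was also lost with the RM samples fitted alone.

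In CD11b+ DC the same genes lay on both sides of 0. Of the 36, 17 had a log2 fold change below and 19 above 0, with a median of 0.02 against 0.01 over all genes. At the study's thresholds 4 were lower, *Mx2*, *Ifit1*, *Oasl1* and *Ifih1*, and 1 was higher, *Zbp1*. Over all genes 1.2% were lower and 0.547% higher. After adjustment 0 of the 36 and 0% of all genes passed (limma, lowest adjusted p of the 36 = 0.440). At an unadjusted p under 0.05, 5 of the 36 were lower and 3 higher, against 880 lower and 599 higher of all 19938 genes. The groups did not overlap for 7 genes that were lower and 9 that were higher, against 13.8% and 13.7% of all genes, with only 3 cKO and 2 WT samples to compare. With litter as a block, 2 genes were higher, *Oasl2* beside *Zbp1*, and *Mx1* joined the 4 that were lower. Without WT replicate 2 only *Ifih1* was lower and 4 were higher (*Oas1a*, *Oas2*, *Oasl2* and *Zbp1*), and without WT replicate 1 or cKO replicate 2 none was higher. *Ifit1* was not among those lower without cKO replicate 1 or by the methods' test, which left 3 lower and 1 higher.

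**Figure D1:**
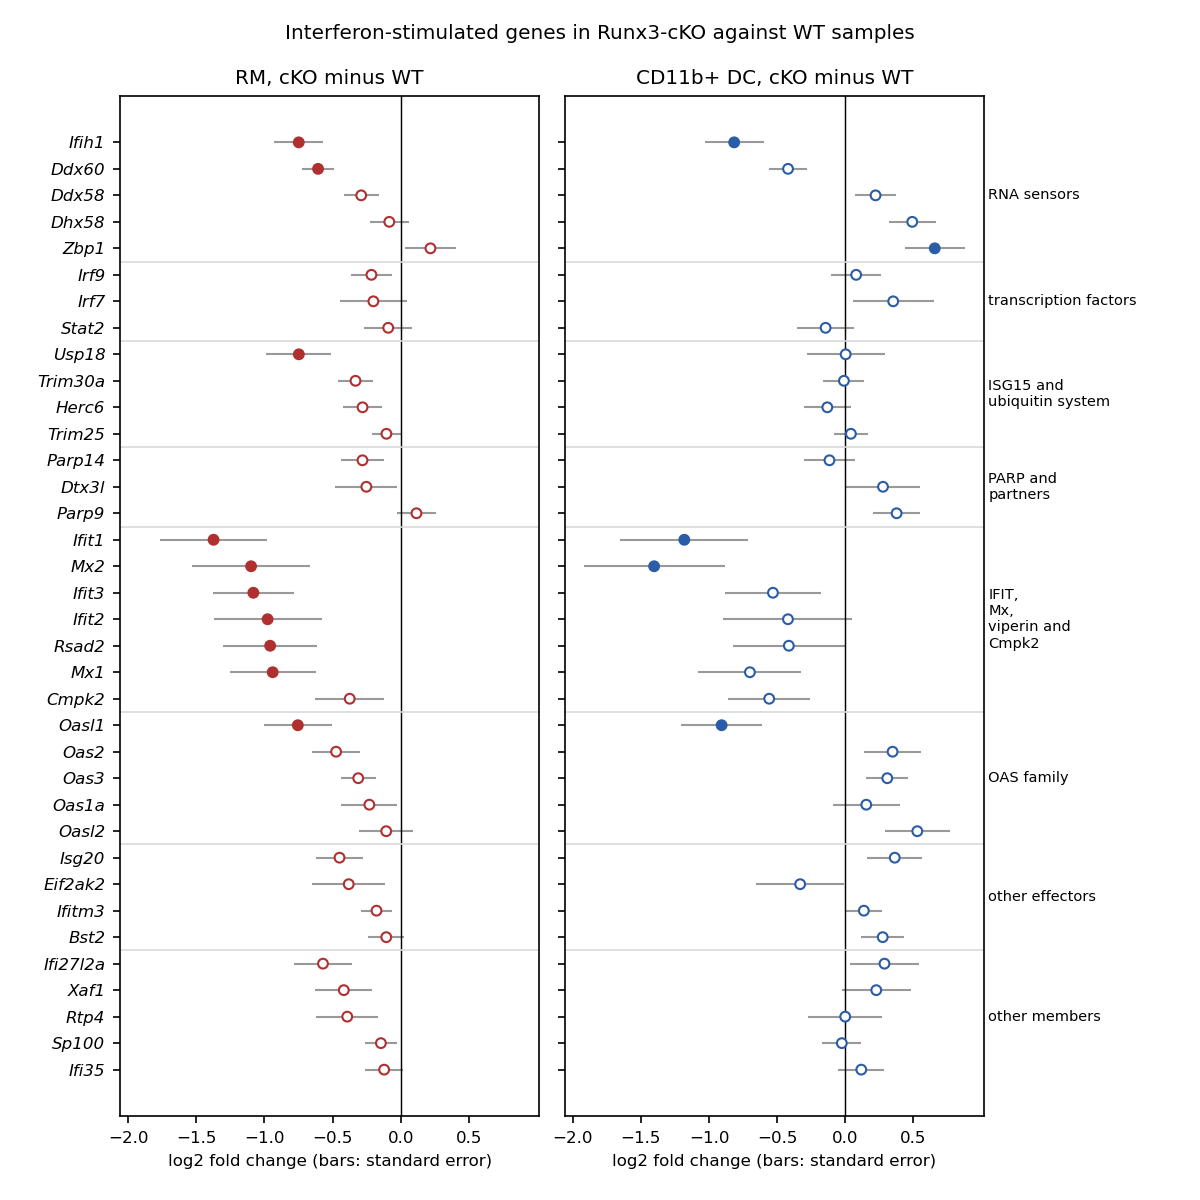
Log2 fold change (cKO minus WT) of each of the 36 genes in RM (left) and CD11b+ DC (right), with the standard error as bars, grouped by the role of the protein. Filled points met the study's thresholds, 10 in RM and 5 in CD11b+ DC, and 34 of 36 points lie below 0 in RM against 17 of 36 in CD11b+ DC.

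The IFIT and Mx families, viperin and Cmpk2 are known as antiviral proteins, whose activity was not measured here. Their genes had the lowest fold changes of the groups in both cell types. All 7 were below 0 in RM, with a median of -0.98, and all 7 were below 0 in CD11b+ DC, with a median of -0.56. *Ifit1* (row 10462623), whose product binds viral RNA that lacks the cap methylation of the host, had log2 levels of 7.77, 8.46, 8.56 and 8.73 in the cKO RM, against 9.73, 8.84 and 10.70 in the WT RM. All 4 cKO samples lay below the 3 WT samples, and the log2 fold change was -1.37 (standard error 0.39, unadjusted p = 0.00497, limma adjusted p = 0.387). In CD11b+ DC it was at 7.86, 8.46 and 8.30 in cKO samples, against 8.97 and 9.81 in WT samples, again without overlap, at a log2 fold change of -1.18 (standard error 0.47, limma adjusted p = 0.676). *Ifit2*, a relative that also promotes cell death, was at 7.05, 7.37, 7.34 and 7.87 in cKO RM and at 7.97, 7.79 and 9.38 in WT RM, or -0.98 as log2 fold change (standard error 0.40). One cKO sample, replicate 4, exceeded WT replicate 2 for this gene. In CD11b+ DC *Ifit2* was at 6.68, 7.39 and 6.93 in cKO and 6.81 and 8.03 in WT samples, which overlapped, at a log2 fold change of -0.42. *Ifit3*, which stabilises Ifit1, was at 6.92, 6.97, 7.17 and 7.14 in cKO RM, against 7.85, 7.55 and 9.0 in WT RM, with no overlap and a log2 fold change of -1.08 (standard error 0.30, unadjusted p = 0.00382, limma adjusted p = 0.351). In CD11b+ DC it was at 6.70, 6.98 and 6.67 in cKO and 6.92 and 7.71 in WT samples, at a log2 fold change of -0.53, with cKO replicate 2 above WT replicate 1.

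*Mx1* is named for a nuclear GTPase that can block influenza viruses, and whether these mice make a working form was not examined. It was at 6.21, 6.48, 6.66 and 6.53 in cKO RM, against 7.06, 6.84 and 8.33 in WT RM, without overlap, and the log2 fold change was -0.94 (standard error 0.32). In CD11b+ DC the levels were 6.37, 6.74 and 6.42 in cKO and 6.80 and 7.61 in WT samples, also without overlap, for a log2 fold change of -0.70 (standard error 0.38). *Mx2*, a cytoplasmic relative, was at 5.96, 6.72, 6.50 and 6.52 in cKO RM and 7.04, 6.69 and 8.84 in WT RM. Its WT replicate 2 lay among the cKO samples and its WT replicate 3 far above all others. The log2 fold change was -1.10 (standard error 0.43), and -0.44 without WT replicate 3. In CD11b+ DC *Mx2* was at 5.60, 5.45 and 5.51 in cKO samples, against 6.46 and 7.38 in WT samples, the largest difference of the 36 genes there, at a log2 fold change of -1.40 (standard error 0.52, unadjusted p = 0.0202, limma adjusted p = 0.634). The 3 cKO samples lay close together and below both WT samples. Their levels lie near the log2 level of 5 that served as a filter for dim rows. *Rsad2*, which encodes viperin, an enzyme that makes a chain-terminating nucleotide, was at 9.72, 9.83, 9.82 and 10.08 in cKO RM, against 11.20, 9.78 and 11.48 in WT RM. WT replicates 1 and 3 were high and WT replicate 2 lay among the cKO samples, at a log2 fold change of -0.96 (standard error 0.35). In CD11b+ DC *Rsad2* was at 9.14, 9.06 and 9.11 in cKO and 9.05 and 9.99 in WT samples, with only WT replicate 2 above the others. *Cmpk2*, a nucleotide kinase of mitochondria that neighbours *Rsad2* in the genome, had log2 fold changes of -0.37 in RM and -0.56 in CD11b+ DC and did not meet the study's thresholds in either.

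Among the sensors of foreign nucleic acid, *Ifih1* and *Ddx60* were the 2 that met the study's thresholds in RM, and *Ifih1* and *Zbp1* those that did in CD11b+ DC. *Ifih1* (row 10483110) encodes MDA5, a helicase that detects long double-stranded RNA in the cytoplasm. Its log2 level was 9.83, 9.91, 9.96 and 10.09 in cKO RM, against 10.24, 10.67 and 11.17 in WT RM, and 9.31, 9.28 and 9.44 in cKO CD11b+ DC, against 9.99 and 10.33 in WT CD11b+ DC. The genotypes did not overlap in either cell type, with log2 fold changes of -0.75 (standard error 0.18, unadjusted p = 0.0017, limma adjusted p = 0.274) and -0.82 (standard error 0.22, unadjusted p = 0.00317, limma adjusted p = 0.44). In CD11b+ DC it met the study's thresholds under every alternative tried. In RM it met them under 23 of 25, the exceptions being the settings without WT replicate 3, and it passed after adjustment under 1, without WT replicate 1 (adjusted p = 0.0482). *Ddx60*, a helicase that assists these sensors, was at 5.70, 5.81, 5.78 and 5.84 in cKO RM, against 6.19, 6.42 and 6.56 in WT RM, and at 5.25, 5.47 and 5.61 in cKO CD11b+ DC, against 5.73 and 6.0 in WT CD11b+ DC. It was the gene with the lowest p of the 36 in RM, at a log2 fold change of -0.61 (standard error 0.12, unadjusted p = 0.000353, limma adjusted p = 0.181), and its groups did not overlap in either cell type, at -0.42 (standard error 0.14) in CD11b+ DC. The *Ddx60* levels of the cKO CD11b+ DC lie near the filter level of 5 as well.

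The other sensors did not follow this pattern in both cell types. *Ddx58*, which encodes RIG-I, the sensor of short RNA with an end phosphate, had log2 fold changes of -0.29 in RM and 0.22 in CD11b+ DC. *Dhx58*, which encodes LGP2, a relative that modulates both, was at 8.01, 7.86, 7.94 and 8.26 in cKO RM and 8.19, 7.79 and 8.33 in WT RM, which overlapped, at -0.08. In CD11b+ DC *Dhx58* was at 7.44, 7.51 and 7.77 in cKO samples, against 7.05 and 7.12 in WT samples, with all cKO samples above the WT samples, at 0.49 (standard error 0.17, unadjusted p = 0.0158), short of the 1.5-fold limit. *Zbp1*, a sensor of left-handed nucleic acid that can trigger cell death, was at 8.33, 8.78 and 8.66 in cKO CD11b+ DC, against 7.75 and 8.12 in WT CD11b+ DC, a log2 fold change of 0.66 (standard error 0.22, unadjusted p = 0.0129, limma adjusted p = 0.578). In RM its levels overlapped, with 8.13, 8.66, 8.57 and 8.86 in cKO and 8.41, 8.08 and 8.53 in WT samples, at 0.22. It was 1 of only 2 genes above 0 in both cell types, the other being *Parp9*.

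**Figure D2:**
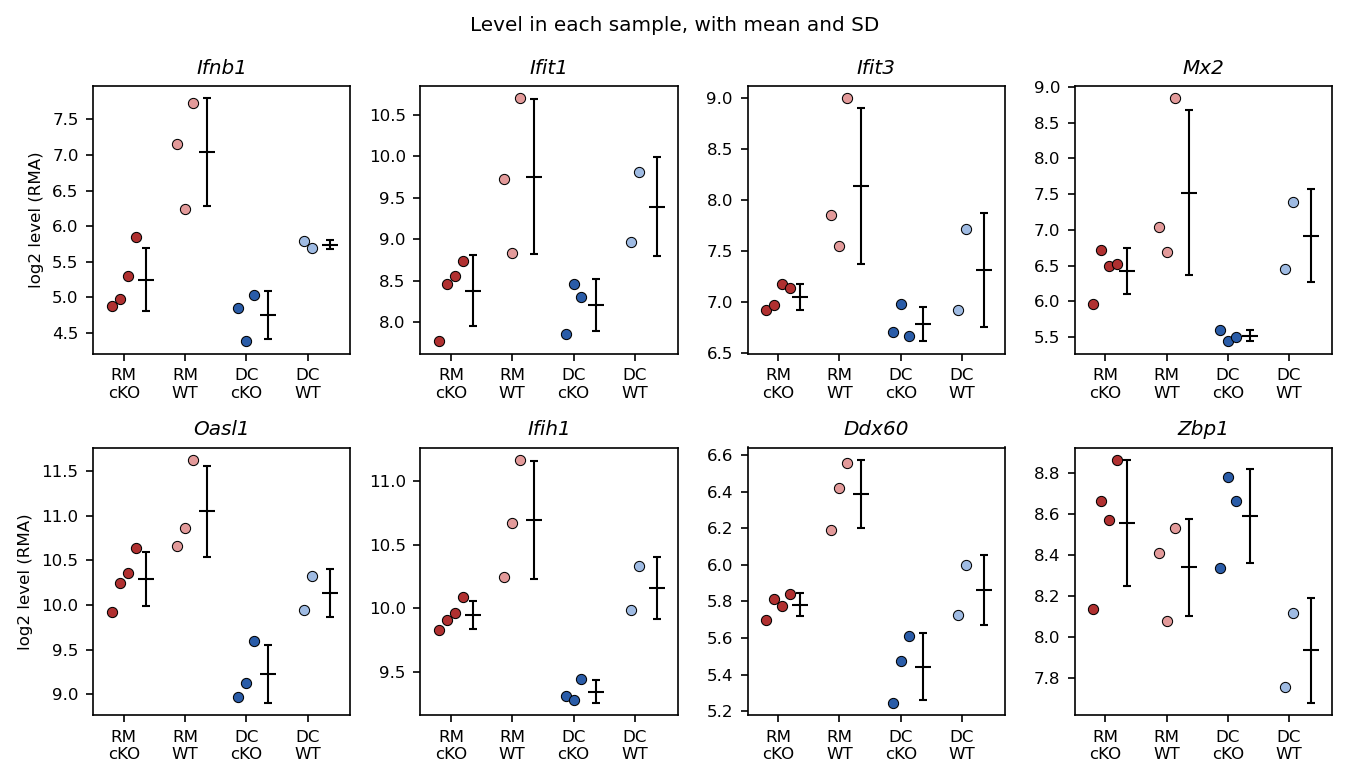
Log2 level in each sample of *Ifnb1*, the gene of interferon-β, and of 7 of the interferon-stimulated genes, by cell type and genotype, with the mean and SD beside the points. Apart from *Mx2* and *Zbp1*, the cKO RM points lie below the WT RM points and, for all 8 genes but *Ifit3*, the groups of CD11b+ DC do not overlap.

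The transcription factors that carry the signal differed less. *Stat2*, a subunit of the complex that binds the response element, was at 8.19, 9.01, 8.81 and 8.78 in cKO RM and 8.62, 8.74 and 9.01 in WT RM, at a log2 fold change of -0.09, and at 9.10, 9.36 and 9.26 in cKO CD11b+ DC and 9.41 and 9.35 in WT CD11b+ DC, with one of -0.14. *Irf9*, the DNA-binding subunit, was at 8.24, 8.79, 8.80 and 8.66 in cKO RM and 8.72, 8.74 and 9.04 in WT RM (-0.22), and at 8.88, 9.22 and 8.93 in cKO CD11b+ DC and 8.84 and 9.02 in WT CD11b+ DC (0.08). For both genes the groups overlapped in each cell type, and cKO RM replicate 1 was the lowest RM sample. *Irf7*, which amplifies the production of interferon-α, was at 8.99, 9.26, 9.02 and 9.08 in cKO RM and 9.87, 8.67 and 9.31 in WT RM, where the WT samples spanned a wider range than the cKO samples on both sides (-0.20, standard error 0.25). In CD11b+ DC *Irf7* was at 9.21, 9.40 and 8.96 in cKO and 8.51 and 9.16 in WT samples (0.35, standard error 0.30). None of the 3 met the study's thresholds.

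The OAS proteins sense double-stranded RNA and make a messenger that activates RNase L. Their relative *Oasl1*, which in mice restrains the translation of Irf7, was the only gene of the family that was lower at the study's thresholds, and it was so in both cell types. It was at 9.92, 10.25, 10.36 and 10.64 in cKO RM, against 10.66, 10.86 and 11.63 in WT RM, at a log2 fold change of -0.76 (standard error 0.25). Its levels were 8.96, 9.13 and 9.59 in cKO CD11b+ DC, against 9.95 and 10.33 in WT CD11b+ DC, with a log2 fold change there of -0.91 (standard error 0.30, unadjusted p = 0.011). Neither pair of groups overlapped. *Oas2* was at 7.57, 7.57, 7.75 and 7.83 in cKO RM and 7.76, 8.39 and 8.31 in WT RM (-0.47, unadjusted p = 0.0207), where WT replicate 1 lay below 1 cKO sample. In CD11b+ DC it was at 7.50, 7.74 and 7.63 in cKO and 6.97 and 7.58 in WT samples (0.35). The other members, *Oas1a*, *Oas3* and *Oasl2*, had log2 fold changes of -0.31 to -0.11 in RM and of 0.15 to 0.53 in CD11b+ DC, so that all 5 were below 0 in RM and 4 of 5 above 0 in CD11b+ DC.

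*Usp18* removes the ubiquitin-like protein ISG15 from its targets and blocks the interferon receptor, a brake on the response. It was at 6.85, 6.94, 7.10 and 7.0 in cKO RM, against 7.76, 7.12 and 8.28 in WT RM, with no overlap, at a log2 fold change of -0.75 (standard error 0.24, unadjusted p = 0.00961, limma adjusted p = 0.466). In CD11b+ DC it was at 8.08, 8.19 and 7.85 in cKO and 7.70 and 8.38 in WT samples, where the 2 WT samples stood on either side of the cKO samples, and its log2 fold change was 0.00. The other genes of the ISG15 and ubiquitin system, the ligase *Herc6* and the TRIM proteins *Trim25* and *Trim30a*, had log2 fold changes of -0.33 to -0.11 in RM and of -0.13 to 0.04 in CD11b+ DC. The ADP-ribosyltransferases *Parp9* and *Parp14* and the Parp9 partner *Dtx3l* had -0.28 to 0.12 in RM and -0.12 to 0.38 in CD11b+ DC. Among the remaining effectors, *Isg20*, an exonuclease, *Eif2ak2*, the kinase PKR, *Bst2*, which tethers virus particles, and *Ifitm3*, which blocks virus entry, had -0.45 to -0.11 in RM and -0.33 to 0.36 in CD11b+ DC. *Ifi27l2a*, *Xaf1*, *Rtp4*, *Sp100* and *Ifi35* had -0.57 to -0.12 in RM and -0.03 to 0.29 in CD11b+ DC. None of these other 15 genes met the study's thresholds, and *Ifi27l2a*, at an unadjusted p of 0.0213 in RM, missed the fold limit narrowly.

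The samples of one group differed on the genes as a whole. Taking each gene's deviation from its mean over the 12 samples and averaging over the 36 genes, the cKO RM lay at -0.36, -0.03, -0.07 and 0.01 and the WT RM at 0.24, 0.05 and 0.65. The 4 cKO samples thus lay below the 3 WT samples. WT replicate 3 was the highest WT RM for 26 of the 36 genes, and cKO replicate 1 was the lowest cKO RM for 29. Over all rows, cKO RM replicate 1 had the highest median level of the 12 samples (5.52) and WT RM replicate 1 the lowest (5.33). Outside the 36 genes, cKO RM replicate 1 was also the lowest cKO RM for *Itgax* and *Fcgr1* and the highest for *Plac8*. In CD11b+ DC the cKO samples lay at -0.27, -0.01 and -0.11 and the WT samples at -0.24 and 0.14, so the genotypes overlapped. Within litters, cKO RM were lower than WT RM for 36 of 36 genes in litter 1 (median -0.50), 21 of 36 in litter 2 (median -0.061) and 33 of 36 in litter 3 (median -0.52). Over all genes the RM medians within these litters were -0.01, 0.02 and 0.01. In CD11b+ DC, litter 3 alone held both genotypes, and 16 of 36 genes were lower in cKO, with a median of 0.07, among them *Mx2* at -1.94. Leaving out both WT replicate 3 and cKO replicate 1, a choice made after their values were seen, left 2 genes at the study's thresholds, *Ifit3* and *Ifi27l2a*.

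**Figure D3:**
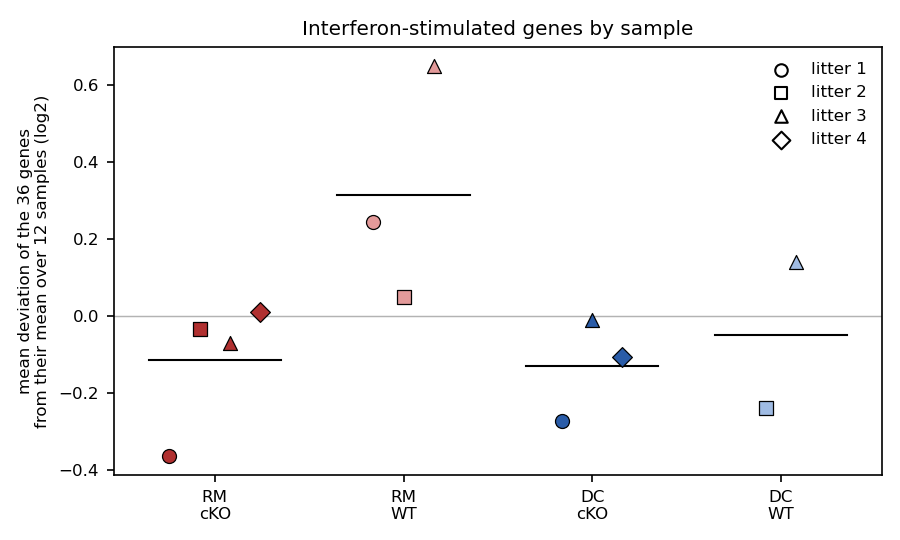
Mean deviation of the 36 genes in each sample from their mean over the 12 samples, on the log2 scale, by cell type and genotype, with symbols for the litter and lines for the group means. The 4 cKO RM (-0.36 to 0.01) lie below the 3 WT RM (0.05 to 0.65), while the CD11b+ DC overlap.

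The difference between the cell types in the effect of the genotype was fitted as an interaction. For 31 of the 36 genes the log2 fold change was lower in RM than in CD11b+ DC, with a median difference of -0.35 against 0.00 over all genes. Of the 36, 17 were below 0 in both cell types, 17 below 0 in RM and above 0 in CD11b+ DC, and 0 the other way round. After adjustment 0 of the 36 and 0% of all genes passed (limma, adjusted p = 0.9996 for each of the 36). At an unadjusted p under 0.05, 6 were lower in RM and 0 higher, against 1.83% of all genes lower. The 6 were *Ifi27l2a* (-0.86, standard error 0.33), *Oas2* (-0.82, standard error 0.27), *Isg20* (-0.81, standard error 0.26), *Oas3* (-0.62), *Dhx58* (-0.57) and *Ddx58* (-0.51). The 4 genes at the study's thresholds in both cell types had interaction values of -0.19 to 0.30, with standard errors of 0.28 to 0.67. The median moved to -0.61 without WT CD11b+ DC replicate 2 and to -0.20 without WT RM replicate 3.

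The same interaction can be read as the difference between RM and CD11b+ DC within each genotype, which is given here for each genotype on its own. The gap between the genotypes is the interaction above with its sign turned, and no gene passed for it. In cKO mice 19 of the 36 genes were higher in RM than in CD11b+ DC, with a median log2 difference of 0.02, and in WT mice 29 were, with a median of 0.37. In cKO samples 1 gene was higher and 4 were lower in RM at an adjusted p under 0.05 (limma), against 4.97% and 5.6% of all genes. In WT samples 3 were higher and 0 were lower, against 4.27% and 4.18% of all genes. The cKO median over all genes was 0.02 and the WT median 0.01.

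In cKO samples, *Oasl1* was higher in RM by 1.07 (standard error 0.25, limma adjusted p = 0.0233). *Usp18* (-1.07, standard error 0.24, adjusted p = 0.0182), *Isg20* (-0.94, standard error 0.17, adjusted p = 0.00564), *Ifitm3* (-0.65, standard error 0.11, adjusted p = 0.00446) and *Ifi35* (-0.54, standard error 0.14, adjusted p = 0.0387) were lower. *Isg20* and *Ifitm3* passed under every alternative tried. With litter as a block *Dhx58* was higher too, *Stat2* was lower and *Ifi35* no longer passed (adjusted p = 0.0875). The call of *Oasl1* was lost without cKO RM replicate 2, 3 or 4 and without cKO CD11b+ DC replicate 1 or 2. Without either of the last 2, *Usp18* and *Ifi35* were lost as well, which left 2 genes lower.

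The 3 genes that were higher in WT RM were *Dhx58*, *Oas2* and *Bst2*. *Dhx58*, whose levels are given above, was higher in each of the 3 WT RM than in the 2 WT CD11b+ DC, by 1.02 (standard error 0.17, limma adjusted p = 0.00466). *Oas2* was higher by 0.88 (standard error 0.21, limma adjusted p = 0.0312) and *Bst2* by 0.63 (standard error 0.16, limma adjusted p = 0.0395). The largest difference was that of *Rsad2*, 1.30, whose standard error of 0.41 left it at an adjusted p of 0.104, and WT RM replicate 2 lay below WT CD11b+ DC replicate 2. *Ifit2* (0.96, adjusted p = 0.344) and *Oasl1* (0.91, adjusted p = 0.115) completed the 5 largest. With litter as a block 6 genes were higher in WT RM, *Oasl1*, *Oasl2* and *Ddx60* beside the 3, and without WT CD11b+ DC replicate 1 or with the WT samples fitted alone 0 were, while 1, *Dhx58*, was without WT RM replicate 3.

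**Figure D4:**
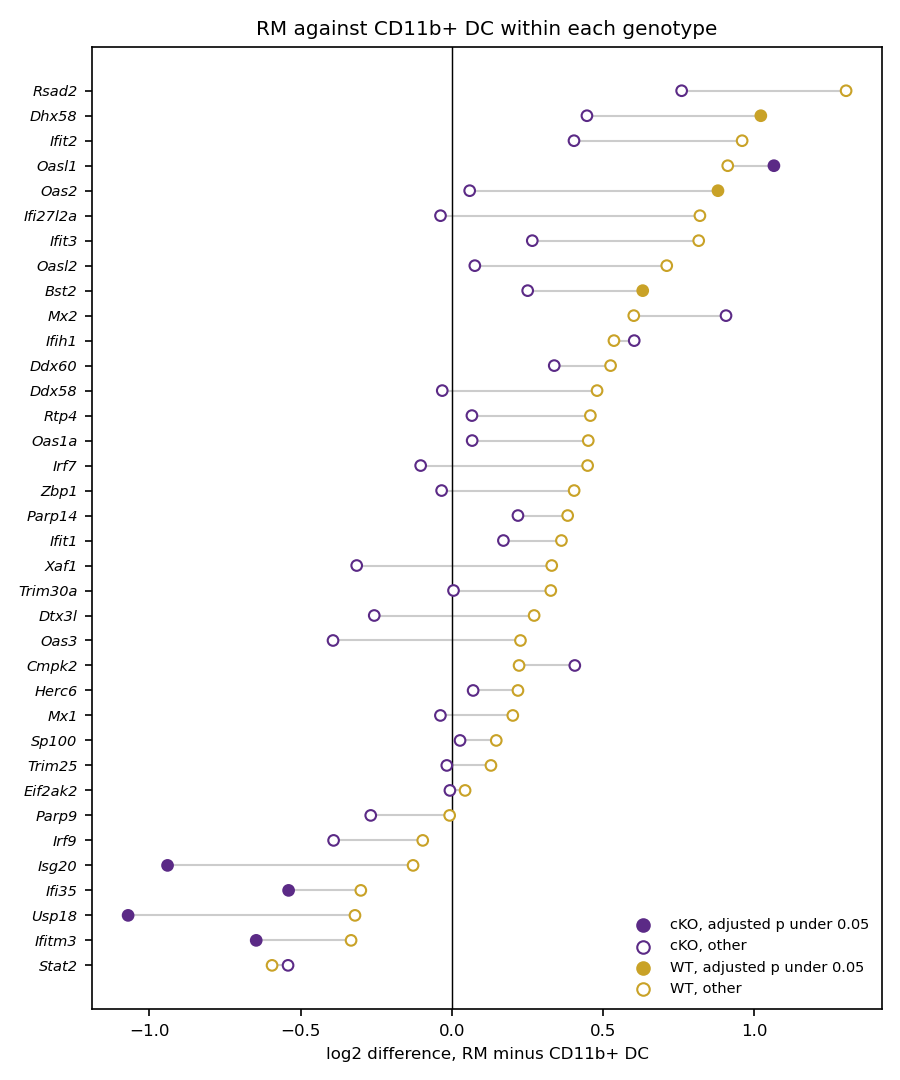
Log2 difference between RM and CD11b+ DC of each of the 36 genes in cKO and in WT samples, ordered by the WT difference. Filled points passed at an adjusted p under 0.05, 5 in cKO and 3 in WT samples, and the WT point lies to the right of the cKO point for 31 genes.

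Of the ligand, the receptor and its kinases, *Ifnb1* differed. *Ifnb1* (row 10514285) encodes interferon-β, and its log2 level was 4.88, 4.98, 5.30 and 5.85 in cKO RM, against 7.15, 6.23 and 7.74 in WT RM. The groups did not overlap, and the log2 fold change was -1.79 (standard error 0.33, unadjusted p = 0.000201, limma adjusted p = 0.148). It met the study's thresholds under all 25 alternatives, with limma adjusted p of 0.0284 to 0.462, under 0.05 with 1 row per gene or the mean of a gene's rows in the fit. It came to -1.44 without WT replicate 3. In CD11b+ DC *Ifnb1* was at 4.86, 4.38 and 5.03 in cKO samples, against 5.79 and 5.69 in WT samples, also without overlap, at -0.99 (standard error 0.39, unadjusted p = 0.0289, limma adjusted p = 0.678). There it no longer met the thresholds without WT replicate 1, WT replicate 2 or cKO replicate 2, or by the methods' test as rebuilt here. The study itself lists *Ifnb1* as down-regulated in both its cKO RM and its cKO CD11b+ DC. It also counts *Ifnb1* among the high-confidence Runx3 targets that the 2 cell types share. Several of these levels lie near the log2 level of 5 that served as a filter for dim rows. The receptor chains had high levels in all samples: *Ifnar1* was at 10.89 ± 0.12 (SD, n = 4) in cKO RM and 10.95 ± 0.03 (SD, n = 3) in WT RM, and *Ifnar2* at 10.35 ± 0.13 and 10.50 ± 0.01 in the same groups. Their log2 fold changes were -0.06 and -0.14 in RM and -0.12 and 0.07 in CD11b+ DC. *Ifna2* and the kinase gene *Tyk2* had -0.24 and 0.11 in RM. Of the 10 measured genes of this list, 1 was lower at the study's thresholds in each cell type, *Ifnb1*.

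Upstream of interferon production, 10 of 14 measured sensors, adaptors and kinases lay below 0 in RM, with a median of -0.16, and 10 of 14 in CD11b+ DC, with a median of -0.12. *Tlr9*, the endosomal receptor of bacterial DNA, had the lowest p in RM, at a log2 fold change of -0.49 (standard error 0.10, limma adjusted p = 0.181), and was at -0.29 in CD11b+ DC. *Irf3*, the factor that turns on *Ifnb1*, had -0.33 in RM, *Mavs*, the adaptor of Ifih1 and RIG-I, -0.53, and *Cgas*, the sensor of cytosolic DNA, -0.60. *Cgas* alone met the study's thresholds in RM, and none did in CD11b+ DC. Of the other transcription factors and brakes of the pathway, 5 of 9 lay below 0 in RM (median -0.01), with the lowest p for *Irf8* (0.31), *Pias1* (-0.32), *Socs1* (0.40) and *Usp25* (-0.20), and none met the thresholds.

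Interferon-stimulated genes outside the 38 showed less of a common direction. Of 34 measured, 22 were below 0 in RM, with a median of -0.09, and 14 in CD11b+ DC, with a median of 0.07. In RM 1 was lower at the study's thresholds, the nucleotidase gene *Nt5c3* (-0.71, standard error 0.16), and 1 higher, *Gm4951* (0.93). *Gm4951* was named after its value was seen. With *Nt5c3*, the lowest p belonged to *Phf11d* (-0.52, limma adjusted p = 0.189), *Tor3a* (-0.46) and *Ifit3b* (-0.55). *Ifit3b* is a near copy of *Ifit3*, and an array may not part the 2.

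Most genes induced by interferon-γ, the type II interferon that T and NK cells make, lay on the other side of 0. Of 20 measured, 19 were above 0 in RM, with a median of 0.41, and 19 in CD11b+ DC, with a median of 0.53. The 1 below 0 was *Ciita* in both, at -0.41 in RM and -0.31 in CD11b+ DC. *Ciita* was named after its value was seen. At the study's thresholds 7 were higher in RM and 6 in CD11b+ DC, with 0 lower in either, and 0 passed after adjustment. *Nlrc5*, an activator of MHC class I transcription, had log2 fold changes of 0.83 in RM (standard error 0.12, limma adjusted p = 0.0656) and 0.69 in CD11b+ DC, the GTPase gene *Iigp1* 1.33 and 0.74, the peptide transporter gene *Tap1* 0.64 and 0.47, and the chemokine gene *Cxcl9* 1.27 and 1.08. Type I interferons also induce many of these genes.

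Markers of other cell types were looked at in the same samples. In RM most of those of plasmacytoid DC lay below 0 and most of those of T and NK cells above 0. The 8 measured markers of plasmacytoid DC, cells known for making type I interferon, had a mean log2 level of 7.22 to 7.45 in the cKO RM and 7.35 to 7.81 in the WT RM, with 6 of 8 below 0 and a median of -0.20. Of these, *Siglech* was at 4.84 ± 0.19 (SD, n = 4) in cKO RM and 5.46 ± 0.33 (SD, n = 3) in WT RM (-0.62). These levels lie near the log2 level of 5 that served as a filter. The study lists *Siglech* among anti-inflammatory genes down-regulated in its cKO RM, and as higher in mature RM than in their monocyte precursors. *Tcf4* had -0.42, *Lair1* -0.43 and *Ccr9* -0.30, and *Lair1* was itself higher in WT RM (10.29) than in WT CD11b+ DC (8.02). *Ly6d* had -0.11 and *Spib* -0.10, while *Pacsin1* (0.12) and *Cox6a2* (0.14) lay above 0. In CD11b+ DC these markers had a mean of 7.17 to 7.49 in cKO and 6.86 to 7.01 in WT samples. There 7 of 8 lay above 0, with a median of 0.38, and *Cox6a2* (0.85) was higher at the study's thresholds. Of 12 markers of T and NK cells, 11 were above 0 in RM, with a mean level of 6.16 to 6.79 in cKO and 5.71 to 6.27 in WT samples and a median of 0.28. *Gzma* had 1.30, *Cd3d* 0.32, *Nkg7* 0.85 and *Cd4*, which macrophages also express, -0.49, while the NK cell markers *Ncr1* and *Klrb1c* lay at mean log2 levels of 3.46 to 3.61 in both genotypes of RM. Monocyte markers had a median of 0.18 in RM, 5 of 9 above 0, with *Plac8* at 0.80, *Hp* at 1.54, *Vcan* at -0.59 and *S100a8* at 0.18, at a mean level of 6.96 to 7.46 in cKO and 6.75 to 7.27 in WT samples. In CD11b+ DC these markers had a median of 0.01, with a mean level of 6.46 to 7.07 in cKO and 7.14 to 7.33 in WT samples, and 3 of 9 were lower at the study's thresholds, *F13a1* (-2.38), *Fn1* (-2.02) and *Vcan* (-1.33). T and NK cell markers had a median of 0.39 there, 10 of 12 above 0. The medians of the B and plasma cell, epithelial, granulocyte and stromal lists were -0.01, 0.19, 0.11 and -0.17 in RM and 0.08, 0.28, 0.11 and -0.47 in CD11b+ DC, where 2 epithelial and 2 granulocyte markers were higher and 2 stromal markers lower at the study's thresholds. *F13a1*, *Fn1*, *Ly6d*, *Spib*, *Pacsin1* and *Cox6a2* were named after their values were seen. The part of these cells in the result was not tested.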

How the data were processed

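RNA of sorted cecal RM and CD11b+ DC was hybridised to 12 Affymetrix mouse arrays. The methods name the mouse exon ST 1.0 array, while the row identifiers were named here through a gene-level annotation. The deposited values are log2 levels, which the authors made from the scanner files in Partek by RMA (background correction, quantile normalisation and summary over a gene's probes) with GC correction. The submitters' processing notes give the mm9 build. RMA pulls the arrays to a common distribution, so a shift of most genes at once would not be seen. Of the 35556 rows, 21789 carry 1 gene symbol, 1621 several and 12146 none. Genes named on no row with a single symbol were not analysed here. Where a gene had several rows the brightest was used, which left 19938 genes.

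A linear model over the 4 groups was fitted to all rows with limma 3.58.1 (R 4.3.3) on the log2 values, with 2-sided moderated tests of the cKO effect in each cell type, their difference, and RM against CD11b+ DC in each genotype. The p-values were adjusted by Benjamini-Hochberg over all rows. Genes at the study's thresholds were counted too. Standard errors are limma's. The procedure was tested on simulated data. Alternatives were litter as a fixed or random block, other priors, array weights, normalisations, filters and row choices. Others were the samples of 1 comparison alone, the methods' test, and leaving out each sample. The methods' test was rebuilt here as the 4-group contrast with no moderation and is not the authors' own fit. The labels' litter mate number was read as a shared litter, which would pair samples, although each sample pools several mice and the labels do not explain the number. The check of this was weak: over all rows the deviations from the group means correlated at a median of 0.0958 (-0.0412 to 0.358) in 13 pairs of 1 litter, against -0.0347 (-0.257 to 0.203) in 40 other pairs, and over the 36 genes at 0.305 (0.0912 to 0.764), against -0.091 (-0.764 to 0.285).

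The genes and lists were chosen with earlier results of these data known. Levels of every sample are given for genes at the study's thresholds, for the 5 with the largest difference between WT RM and WT CD11b+ DC and for *Irf7*, *Irf9* and *Stat2*, and from other lists the 4 genes with the lowest p in RM. RefSeq promoters (GRCm38.p6) were searched in Python 3.11.15.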

Additional observations from a re-analysis of the deposited data

Results flagged for a closer look

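*Cmpk2* in cKO RM replicate 2 stood apart from the other cKO RM, at a log2 level of 5.85 against 5.71 to 5.73 in the other 3. The gap took 0.857 of the range of the group, above Dixon's critical value for a group of 4. It was the only one of the 36 genes to do so in this group, the only group with 4 samples, and chance alone marks about 1 in 20. The cause was not tested.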

How the results depend on the processing

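No gene called in a comparison changed direction. The medians close to 0 changed sign when 1 sample was left out, from -0.04 to 0.15 in CD11b+ DC (0.02) and from -0.06 to 0.10 between the cell types in cKO samples (0.02). In RM, the median over the 36 genes (-0.32) ranged from -0.38 to -0.22 when 1 sample was left out, and was -0.061 within litter 2 and -0.52 within litter 3. The count of genes lower at the study's thresholds (10) ranged from 3 without WT replicate 3 to 13 without WT replicate 2, and was 2 without WT replicate 3 and cKO replicate 1. The count after adjustment (0) ranged from 0 to 1. In CD11b+ DC, the counts lower (4) and higher (1) ranged from 1 to 5 and from 0 to 4, and 2 were higher with litter as a block and with array weights. The median interaction (-0.35) ranged from -0.61 to -0.20. For RM against CD11b+ DC in cKO samples, the count higher (1) ranged from 0 to 3 and was 2 with the block, 5 with the comparison's samples alone, 0 by the methods' test, 2 with array weights, 3 with 1 row per gene, 3 with the mean of a gene's rows and 2 without the leading unnamed rows. The count lower (4) ranged from 2 to 4 when 1 sample was left out, and was 2 by the methods' test and 5 with 1 row per gene or the mean of a gene's rows. In WT samples, the median (0.37) ranged from 0.18 to 0.60, the count lower (0) from 0 to 1 (*Stat2*) and the count higher (3) from 0 to 4, which was 6 with the block, 0 with the comparison's samples alone, 1 by the methods' test, 6 with array weights, 7 with 1 row per gene and 7 with the mean of a gene's rows. Fits on fewer rows adjust over fewer tests, and the cause of the other shifts was not tested. The litter block changed no other call. With 2 to 4 arrays a group, the number of arrays limits the precision, and dim genes such as *Ifnb1* in CD11b+ DC lie near the lower end of the scale.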
